A study of Mus musculus with 20 samples.

Results

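The genes described here encode growth factor signals and the proteins that carry or restrain them: Fgf23, Hgf, Igfbp4, Erbb2, Kit, Akt1 and Socs2. They were measured in mouse ileal mucosa with TaqMan assays, probe-based real-time PCR, on an OpenArray plate of inflammation genes. The members are all assays whose symbol is one of these 7 names, 9 of the 648 assays in the table, with 3 assays for Hgf and 1 for each other gene. The genes were chosen by their measured levels and detection in the group comparisons of these same samples, so the differences between groups given for them are a description and not independent evidence.

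The 20 samples fall into 4 groups of 5. Healthy controls had phosphate-buffered saline (PBS) by the rectum and by mouth. The DNBS group had intrarectal DNBS (dinitrobenzene sulfonic acid, a hapten used to induce colitis) with oral PBS, the CEC group had intrarectal DNBS with an oral treatment named in the labels only as CEC, and the Nissle group had intrarectal DNBS with oral Nissle (the name of a probiotic Escherichia coli strain). All groups but the healthy controls thus had DNBS. Strain, age, dose and time are not given in the sources used here. The series text mentions pooling of RNA from mice, and whether a sample is 1 mouse is not stated, so errors here are those between samples, which may be technical. Nissle 3, 4 and 5 have a group label that names the healthy controls, against all their other labels. They stay in the Nissle group here. For each tested member, the log2 differences of the Nissle group from the healthy controls and the DNBS group are also given without them. Sample numbers come from the titles, and values are listed in the order healthy 1b, 3, 4, 5 and 6, DNBS 1 to 5, CEC 1, 3, 5, 7 and 8, and Nissle 1 to 5.

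Growth factors act through receptor tyrosine kinases at the cell surface, which switch on the PI3 kinase and Akt pathway and the Ras and ERK pathway inside the cell. Growth hormone and many cytokines act through JAK kinases and STAT factors, and STAT5 induces Socs2, which in turn damps the signal. In the intestine these pathways are known for their part in the growth, survival and repair of the epithelium.

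Levels are given as relative levels: the negative of an assay's cycle threshold (Ct, the PCR cycle at which a fixed fluorescence is reached) minus the mean over the 544 assays that had a value in every sample. They are log2 values if each cycle doubles the product, and they compare 1 assay between samples, never assays with each other. A difference between group means is a log2 difference with its standard error (SE) from limma. An assay is called where the p-value adjusted over all 569 tested assays is at most 0.05. The mean Ct of the common assays was 22.6 to 24.3 cycles per sample, and 570 to 594 assays gave a value. RNA from a whole mucosal sample cannot tell fewer cells of a type from less RNA per cell.

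The 8 member assays measured in every sample split by direction in the DNBS group. Socs2, Erbb2 and Kit had lower means than in the healthy controls, by 0.71 to 1.07 on the log2 scale. Akt1, Igfbp4 and Hgf had higher means, by 0.24 to 0.69. Fgf23 gave no product in any healthy sample and a product in all 5 DNBS samples. None of the differences of the 8 assays was called, and Fgf23 was not among the tested assays. For all 8 assays the mean of the CEC group lay nearer to that of the healthy controls than the mean of the DNBS group did, and these distances were not tested against each other. With stretches of 36 assays centred in each sample this no longer held for Hgf_Mm01135182_m1 and Hgf_Mm01135193_m1. For Hgf_Mm01135193_m1 it also failed with scaling to reference assays (CEC -0.23 and DNBS 0.15 from healthy). Without healthy 3 it failed for that assay too (-0.31 and 0.03). The sign of the difference of the DNBS group from the healthy controls held under every scaling tried for 7 of the 8 assays. For Hgf_Mm01135193_m1 this difference turned to -0.07 with stretches of 36 assays centred.

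Fgf23 encodes a hormone made mainly by bone cells that lowers phosphate in the blood. It was detected, meaning a Ct below 40 cycles, in 0 of 5 healthy samples, 5 of 5 DNBS samples, 1 of 5 CEC samples and 1 of 5 Nissle samples. The raw Ct of the DNBS samples was 30.7, 27.1, 31.1, 28.9 and 29.4 cycles. CEC 1 had a Ct of 27.4 and Nissle 1 a Ct of 24.8, the earliest of all, while the other 4 samples of each of these groups stood at 40. Of Nissle 1 and 2, whose labels do not contradict each other, 1 of 2 gave a product. Detection in every DNBS sample and in no healthy sample was found for 1 of 648 assays (0.154%), which was Fgf23 itself. More broadly, 6.33% of assays were detected in more DNBS than healthy samples and 3.09% in fewer.

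As relative levels, Fgf23 stood at -7.70, -4.25, -6.99, -6.00 and -5.67 in the DNBS samples, -3.83 in CEC 1 and -2.20 in Nissle 1. The lone detected samples of the CEC and Nissle groups were thus above every DNBS sample. Of the 7 values, those of DNBS 1 and DNBS 3 were above cycle 30, as were 2.87% of the 11686 measured values of the table. A value of 40 says that the product was not detectable within the run, not that the transcript was absent. No fold is given against a group without a value, and Fgf23 had too few values to be among the tested assays.

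Neutrophil markers are given beside Fgf23 because they were highest in Nissle 1, the sample with most Fgf23. The list of 11 genes had 7 measured, on 8 assays, all with a value in every sample. Its mean relative level was -3.29 to -1.71 in the healthy controls, -2.25 to 0.79 in the DNBS group, -2.82 to 0.45 in the CEC group and -2.43 to 2.66 in the Nissle group. Nissle 1 held the highest value, 2.66, and CEC 1 stood at 0.02. DNBS 5, with Fgf23, had a neutrophil mean of -2.25, and CEC 3, without it, had 0.45, so the markers and detection of Fgf23 did not go together in every sample. Their part in the result was not tested.

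**Figure D1:**
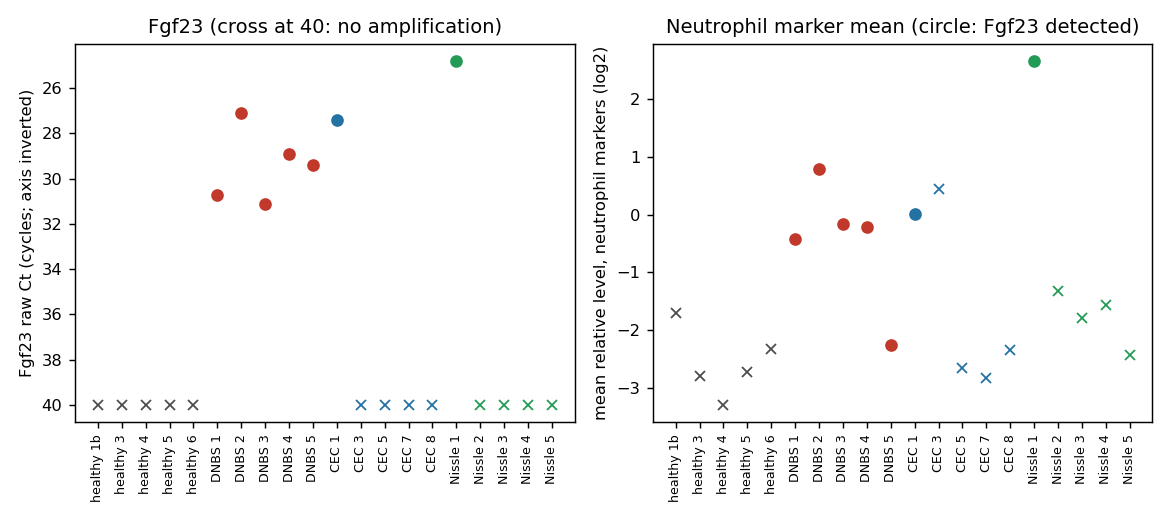
Left, raw Ct of Fgf23 in cycles for each of the 20 samples on an inverted axis, with crosses at 40 where nothing was amplified. Right, the mean relative level (log2) of 8 neutrophil marker assays in the same samples, with circles where Fgf23 was detected. The 7 samples with Fgf23 are the 5 DNBS samples, CEC 1 and Nissle 1, and Nissle 1 is highest in both panels.

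The promoter window of Fgf23 is shown because it is the member whose detection separated the DNBS samples from the healthy ones. It runs from 250 bases before to 50 after the start of the transcript (RefSeq, GRCm38.p6, chr6:127072652-127072951, plus strand). The capitals mark a match to TTCNNNGAA (N is any base), the palindrome that STAT factors bind, at position -101 from the start.

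Fgf23 promoter: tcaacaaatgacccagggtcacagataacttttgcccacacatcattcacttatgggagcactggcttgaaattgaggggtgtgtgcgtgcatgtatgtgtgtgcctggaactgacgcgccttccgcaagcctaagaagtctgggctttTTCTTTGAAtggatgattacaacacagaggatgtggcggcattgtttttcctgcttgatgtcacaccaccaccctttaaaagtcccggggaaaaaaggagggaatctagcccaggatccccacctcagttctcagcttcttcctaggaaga

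No other motif was searched. It reads the same on both strands, which were both searched, and occurred in 8.30% of all 32851 promoter windows of the same length in the table. Among the 9 windows of the member genes, which cover 6 of the 7 genes and not Socs2, that of Fgf23 was the only 1 with a match. A match describes letters in a window and shows no binding.

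Hgf encodes hepatocyte growth factor, a ligand of the receptor Met that is made by mesenchymal cells and acts on epithelium. Its 3 assays had their highest group mean in the DNBS group. Assay Hgf_Mm01135182_m1 stood at -0.84, -1.02, -1.01, 0.11 and -1.0 in the healthy controls and -0.12, -0.51, -0.34, 0.06 and -0.38 in the DNBS group. Its CEC samples stood at -0.85, -0.82, -0.75, -1.08 and -0.74 and its Nissle samples at -0.42, -1.05, -1.38, -0.68 and -0.86. Every CEC sample was below every DNBS sample, and 4 of 5 Nissle samples were too. The healthy group overlapped the DNBS group through healthy 5 alone, whose value was the highest of all 20.

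The second Hgf assay, Hgf_Mm01135183_m1, had its CEC and Nissle samples below the DNBS group too. Healthy samples stood at -0.39, -1.55, -0.81, 0.47 and -0.16 and DNBS samples at 0.03, -0.19, -0.15, 0.43 and 0.91. The CEC samples had -0.93, -0.47, -0.67, -0.52 and -0.47 and the Nissle samples -0.41, -1.02, -0.74, -0.46 and -0.52, all below the lowest DNBS sample. For the other assay, Hgf_Mm01135193_m1, the groups overlapped in all comparisons, with means of -1.16 ± 0.57 in the healthy controls, -0.92 ± 0.27 in the DNBS group, -1.26 ± 0.34 in the CEC group and -1.20 ± 0.89 in the Nissle group (SD, n = 5 each), the last with Nissle 3 at -2.70. So 2 of the 3 assays separated the DNBS group from the CEC group and 1 separated it from the Nissle group.

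In log2 differences, the CEC group differed from the DNBS group by -0.59 (SE 0.26), -0.82 (SE 0.32) and -0.34 (SE 0.37) with assays Mm01135182, Mm01135183 and Mm01135193 of Hgf. The Nissle group differed from it by -0.62, -0.83 and -0.28, and by -0.48, -0.92 and 0.25 without Nissle 3, 4 and 5. The DNBS group differed from the healthy controls by 0.49, 0.69 and 0.24, and with stretches of 36 assays centred by 0.19, 0.64 and -0.07. They also moved with healthy 5 and healthy 3. Without healthy 5 Mm01135182 became 0.71 and Mm01135183 0.93, and without healthy 3 Mm01135183 became 0.43 and Mm01135193 0.03. CEC and Nissle differed from the healthy controls by -0.14 to -0.04 over the 3 assays, within the spread between samples, and the sign of each turned without healthy 5, to values of 0.02 to 0.12. Without Nissle 3, 4 and 5 the Nissle values were 0.02, -0.23 and 0.49, the last from a value of -0.04, and without Nissle 3 alone that assay differed by 0.33. In the order of group means, neighbours below the DNBS group did not differ beyond their spread for any Hgf assay.

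Igfbp4 encodes a binding protein that holds insulin-like growth factors and limits their access to the receptor. It stood at 2.32, 2.51, 2.21, 3.07 and 2.68 in the healthy controls and 3.24, 3.17, 3.41, 2.78 and 3.24 in the DNBS group. CEC samples had 2.94, 2.96, 2.48, 2.91 and 2.55, and Nissle samples 2.96, 3.13, 2.83, 3.27 and 3.18. Of the DNBS samples, 4 of 5 lay above the highest healthy sample, and 3 of 5 Nissle samples did, while the CEC samples all lay within the healthy range. Healthy 5 was the highest healthy sample here too.

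The mean of Igfbp4 was 1.53-fold higher in the DNBS group than in the healthy controls (log2 0.61, SE 0.20) and 1.43-fold higher in the Nissle group (0.52, SE 0.20, and 0.49 without Nissle 3, 4 and 5). The CEC group differed by 0.21 from the healthy controls and by -0.40 from the DNBS group (SE 0.20 each, the latter -0.14 with stretches of 36 assays centred). Nissle differed from DNBS by -0.10, and by -0.12 without Nissle 3, 4 and 5. That sign turned without normalization (0.11), with reference assays (0.05), with quantile normalization (0.03) and with stretches centred (0.14). From highest to lowest the means ran DNBS, Nissle, CEC and healthy. Only the step from Nissle to CEC, 0.31, exceeded the pooled SD of its groups, 0.21, and it was 0.28 without Nissle 3, 4 and 5. The samples of both groups overlapped, and the step was not called (adjusted p = 0.998, limma).

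**Figure D2:**
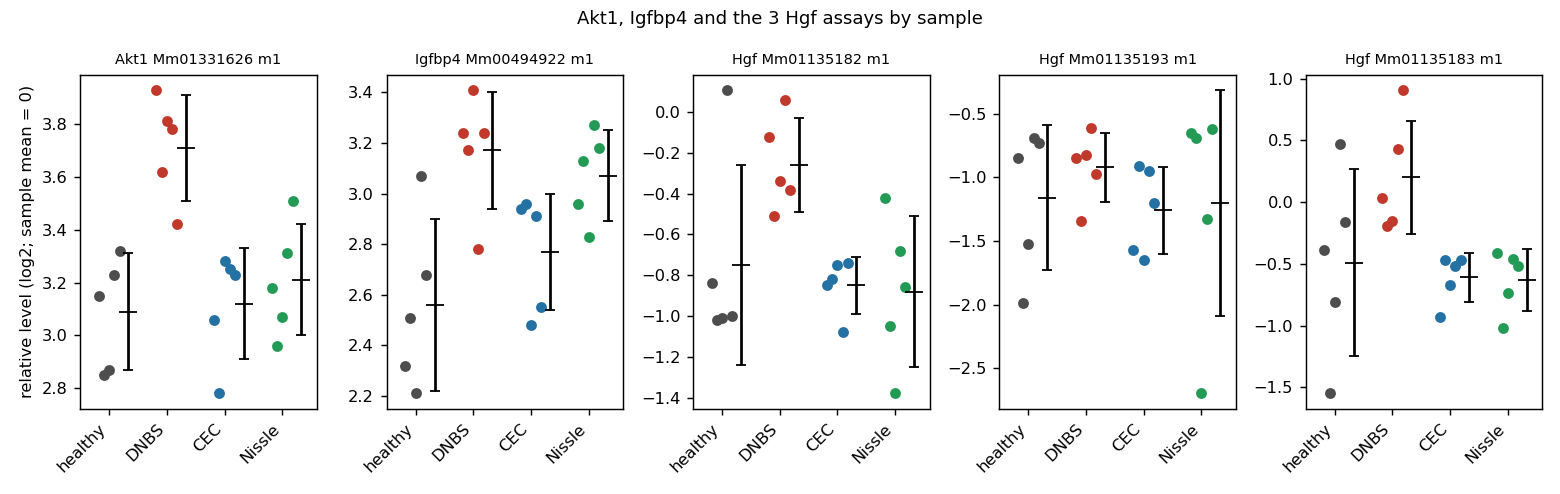
Relative level (log2, sample mean at 0) of Akt1, Igfbp4 and the 3 Hgf assays in each of the 20 samples by group, with the mean and SD of each group (n = 5) beside the points. Axes differ between panels. All 5 DNBS samples of Akt1 lie above every healthy and every CEC sample, and healthy 5 lies apart at 0.11 in the first Hgf panel.

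Erbb2 encodes a receptor of the epidermal growth factor family that pairs with its relatives and binds no ligand of its own. It stood at 0.56, 1.51, 1.05, 1.16 and 0.39 in the healthy controls and 0.09, 0.00, 0.35, -0.26 and -0.82 in the DNBS group. The CEC group had 0.31, 0.57, 1.23, 0.78 and 1.11, and the Nissle group -0.19, 0.79, -0.33, -0.03 and 0.92. No DNBS sample reached the healthy range, and 4 of 5 CEC samples exceeded the highest DNBS sample. The Nissle samples spread over the ranges of both, with 3 of 5 below the lowest healthy sample.

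Erbb2 was 2.09-fold lower in the DNBS group than in the healthy controls (log2 -1.07, SE 0.31), 1.90-fold higher in the CEC group than with DNBS alone (0.93, SE 0.31), and within the spread of the healthy controls in the CEC group (-0.14, SE 0.31, and 0.01 without healthy 3). That CEC difference was -0.54 with the title number as a replicate block and 0.11 with samples weighted by their quality. The Nissle group differed from the healthy controls by -0.70 and from the DNBS group by 0.36 (-0.64 and 0.43 without Nissle 3, 4 and 5). Assays near Erbb2 in the deposited table moved with sample: the 31 other assays of its stretch of 36 lay 1.21 lower than their own averages in DNBS 5 and 0.72 higher in DNBS 2. With every stretch of 36 assays centred in each sample the differences from the healthy controls were -0.96 for DNBS, -0.37 for CEC and -0.96 for Nissle. Those from the DNBS group were then 0.59 for CEC and 0.01 for Nissle. For the other members the shifts of their stretches were between -0.44 and 0.58. The sources used here do not say what a position in the table stands for.

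Kit encodes the receptor for stem cell factor, found on mast cells and on the pacemaker cells of the gut wall. It stood at 0.77, 1.49, 1.40, 1.05 and 1.38 in the healthy controls and 0.71, 0.16, 0.92, 0.38 and 0.37 in the DNBS group. CEC samples had 0.84, 0.57, 0.79, 1.05 and 0.98, and Nissle samples -0.50, 0.56, 0.55, 0.67 and 1.13. In both the DNBS and the Nissle group 4 of 5 samples lay below the lowest healthy sample. Nissle 1 was the lowest of all 20 samples.

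The log2 differences of Kit from the healthy controls were -0.71 in the DNBS group, -0.73 in the Nissle group and -0.37 in the CEC group (SE 0.26 each). The Nissle value was -0.49 without Nissle 1, and -1.19 without Nissle 3, 4 and 5, which leaves Nissle 1 and 2. With stretches of 36 assays centred the differences were -0.43, -0.45 and -0.28, and that of CEC from DNBS was 0.16. In the order of means, CEC lay below the healthy controls and above DNBS by more than the pooled SD of the neighbours (0.37 against 0.25, and 0.34 against 0.25). Samples of these neighbours overlapped, and neither step was called (adjusted p = 0.803 and 0.612, limma). DNBS and Nissle did not differ beyond their spread. Nissle differed from DNBS by -0.03, and by -0.48 without Nissle 3, 4 and 5. The difference of CEC from Nissle was 0.36, and 0.82 without those samples. Of 12 mast cell markers 1 was measured, the IgE receptor gene Fcer1a, and it was detected in 2 of 5 healthy, 2 of 5 DNBS, 3 of 5 CEC and 2 of 5 Nissle samples. None of 6 markers of smooth muscle and pacemaker cells was measured.

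Akt1 encodes a kinase that growth factor receptors activate through PI3 kinase. It stood at 3.15, 2.85, 2.87, 3.23 and 3.32 in the healthy controls and 3.93, 3.62, 3.81, 3.78 and 3.42 in the DNBS group. The CEC group had 3.06, 2.78, 3.28, 3.25 and 3.23, and the Nissle group 3.18, 2.96, 3.07, 3.31 and 3.51. Every DNBS sample lay above every healthy and every CEC sample, and 4 of 5 Nissle samples lay below the lowest DNBS sample. The healthy, CEC and Nissle samples overlapped each other.

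Akt1 was 1.54-fold higher in the DNBS group than in the healthy controls (log2 0.63, SE 0.18). The difference from the DNBS group was -0.59 in the CEC group and -0.51 in the Nissle group (SE 0.18 each, and -0.65 for Nissle without Nissle 3, 4 and 5). CEC and Nissle differed from the healthy controls by 0.04 and 0.12, signs that turned with stretches centred (-0.15 and -0.05). The Nissle sign also turned without Nissle 3, 4 and 5 (-0.02), and the CEC sign with reference assays (-0.10) and without healthy 3 or healthy 4 (-0.02 each). Nissle, CEC and healthy means followed DNBS in that order, and the 3 did not differ beyond their spread. With stretches of 36 assays centred, the difference of DNBS from healthy was 0.32 (SE 0.18), and that of CEC from DNBS -0.47.

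Socs2 encodes suppressor of cytokine signalling 2, which restrains signalling by growth hormone and by other receptors that use JAK and STAT proteins. It stood at 2.67, 2.50, 2.68, 2.61 and 2.48 in the healthy controls, a narrow band with an SD of 0.09. DNBS samples had 1.72, 1.42, 1.62, 1.40 and 2.03, CEC samples 1.86, 1.82, 2.23, 2.46 and 2.68, and Nissle samples 0.95, 2.12, 1.63, 1.59 and 2.24. No sample of the DNBS or Nissle group reached the healthy band, and 4 of 5 CEC samples fell short of it. CEC 5, 7 and 8 lay above the highest DNBS sample. The lowest value of all 20 was that of Nissle 1.

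The mean of Socs2 was 1.93-fold lower in the DNBS group (log2 -0.95, SE 0.24) and 1.84-fold lower in the Nissle group (-0.88, SE 0.24) than in the healthy controls, and differed by -0.38 in the CEC group. The CEC group differed from the DNBS group by 0.57 and from the Nissle group by 0.50 (SE 0.24 each). The difference from DNBS was 0.39 with stretches of 36 assays centred and 0.34 with the title number as a replicate block. That of CEC from Nissle was 0.11 without normalization. Without Nissle 1, Nissle differed from the healthy controls by -0.69 and CEC from Nissle by 0.31. Without Nissle 3, 4 and 5 these values were -1.05 and 0.68. The means ran healthy, CEC, Nissle and DNBS from the top. Nissle differed from DNBS by 0.07, by -0.10 without Nissle 3, 4 and 5, and by -0.06 without Nissle 5 alone. Nissle and DNBS did not differ beyond their spread, and the other steps exceeded the pooled SD. Samples overlapped in those steps too, and neither was called (adjusted p = 0.803 for healthy to CEC and 0.998 for CEC to Nissle, limma).

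The Socs2 assay, Socs2_Mm00850544_g1, is of a design class that may also amplify genomic DNA, as single-exon assays can. The 51 tested assays of its class had a median log2 difference of -0.09 between DNBS and healthy and the 53 single-exon assays one of -0.65, of which 47 were lower. Between CEC and DNBS these medians were -0.01 and 0.64. The part of genomic DNA in the level of Socs2 was not tested. With stretches of 36 assays centred, Socs2 differed by -0.68 between DNBS and healthy.

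**Figure D3:**
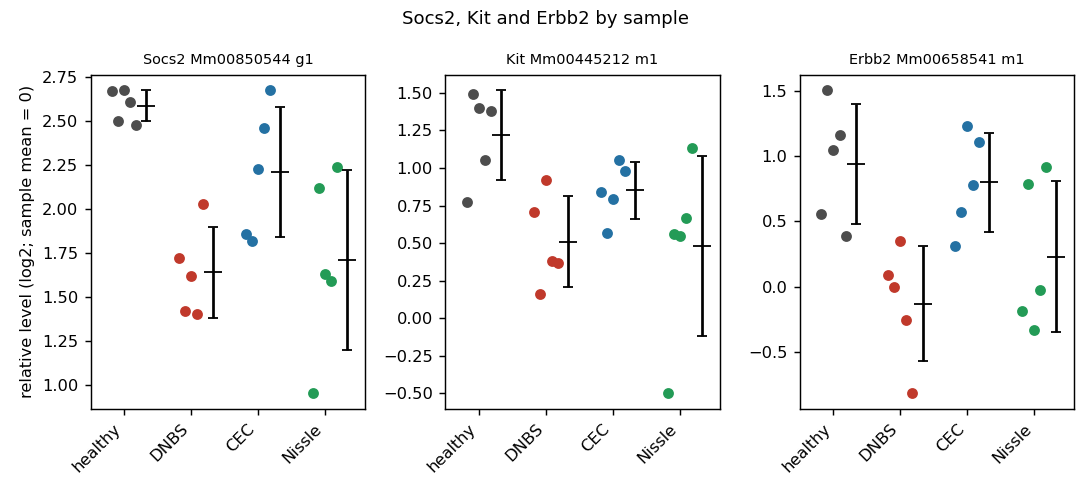
Relative level (log2, sample mean at 0) of Socs2, Kit and Erbb2 in each of the 20 samples by group, with the mean and SD of each group (n = 5) beside the points. Axes differ between panels. The healthy samples of Socs2 lie between 2.48 and 2.68 with all DNBS and Nissle samples below them, and Nissle 1 is the lowest sample for Socs2 and Kit.

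Set side by side, the 6 comparisons gave no call among the 8 tested member assays with limma. The smallest adjusted p-values of a member were 0.122 for DNBS against healthy, 0.803 for CEC against healthy, 0.395 for Nissle against healthy, 0.385 for CEC against DNBS, 0.850 for Nissle against DNBS and 0.998 for CEC against Nissle. Over all 569 assays the share called was 0.176% in each comparison with the healthy controls and 0% in the other 3. An unadjusted p under 0.05 (limma) was found for 6, 0, 4, 5, 3 and 1 member assays in the same order, where 14.6%, 3.87%, 9.49%, 10.7%, 4.22% and 1.41% of all assays had one. Groups did not overlap for 3 member assays in DNBS against healthy (Socs2, Erbb2 and Akt1; 4.75% of all assays), for 1 in Nissle against healthy (Socs2; 2.99%), for 3 in CEC against DNBS (Akt1 and 2 Hgf assays; 3.16%) and for 1 in Nissle against DNBS (an Hgf assay; 1.05%). In CEC against healthy and CEC against Nissle no member assay was free of overlap (0.879% and 0.351%). Since these contrasts were known when the genes were picked, nothing is read from the counts. The comparisons share groups and are not independent.

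The call for Socs2 in DNBS against healthy differed between fits. It was called lower in a fit to both groups alone (adjusted p = 0.0336, limma), without DNBS 5 (log2 -1.05, adjusted p = 0.0380) and without Nissle 1, a sample of neither group (-0.95, adjusted p = 0.0313). The shares of all assays called in these fits were 1.58%, 1.24% and 1.06%. With samples weighted by their quality limma called 7 of the 8 member assays, 4 higher and 3 lower, and 15.8% of all assays. In that fit Socs2 (0.76, adjusted p = 0.0445) and Akt1 (-0.59, adjusted p = 0.0445) were also called between CEC and DNBS, with 3.69% of all assays.

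**Figure D4:**
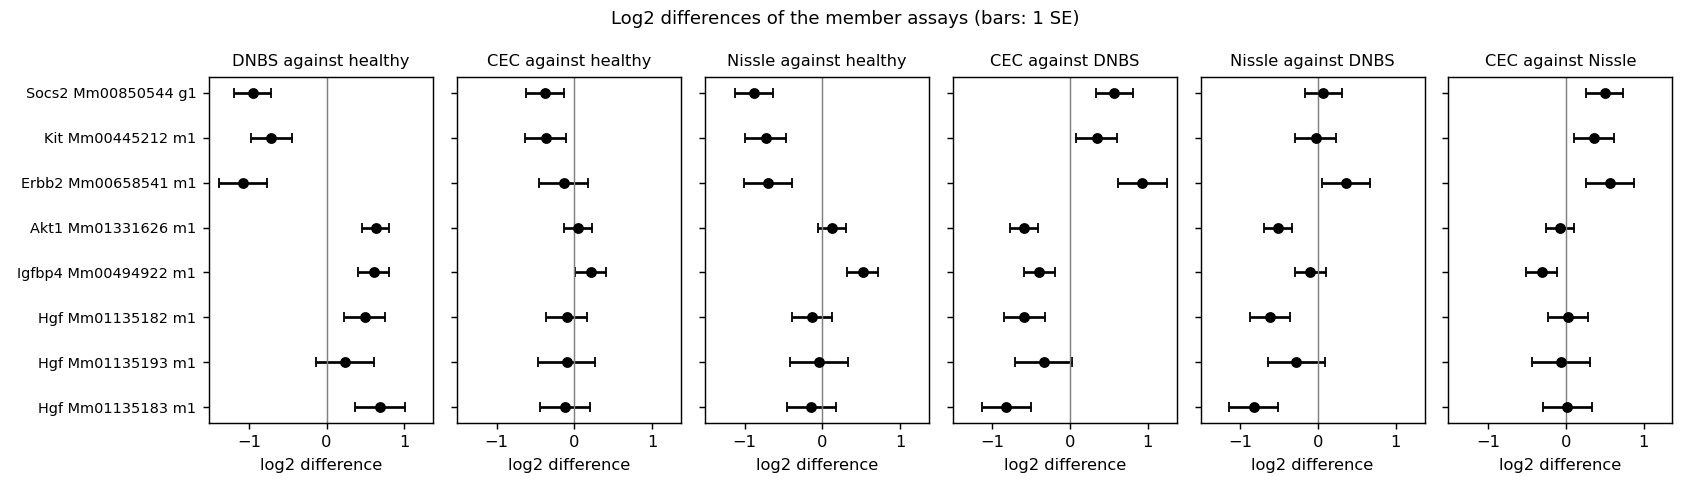
Log2 difference of the 8 tested member assays in the 6 comparisons, first-named group minus second, with bars of 1 SE. Socs2, Kit and Erbb2 lie below 0 in DNBS against healthy (-0.95, -0.71 and -1.07), and Akt1, Igfbp4 and Hgf lie above 0. No member was called in any panel.

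Socs2, Kit and Erbb2 also varied together from sample to sample. Relative levels of Socs2 and Kit had a Pearson correlation of 0.81, Socs2 and Erbb2 one of 0.72, and Erbb2 and Kit one of 0.68. As deviations from the group means, which removes the differences between groups, the values were 0.63, 0.44 and 0.50. Akt1 had correlations of 0.65, 0.38 and 0.62 with the Hgf assays and 0.51 with Igfbp4, and of 0.35, 0.35, 0.30 and 0.13 as deviations. The Hgf assays correlated with each other at 0.52 to 0.75. Socs2 and Kit lie in the same stretch of 36 assays of the table, and so do Akt1, Hgf_Mm01135182_m1 and Hgf_Mm01135193_m1, so those pairs also share the shifts of their stretch. All these points share the sample mean to which they are scaled, and correlations are given as a description without a test.

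**Figure D5:**
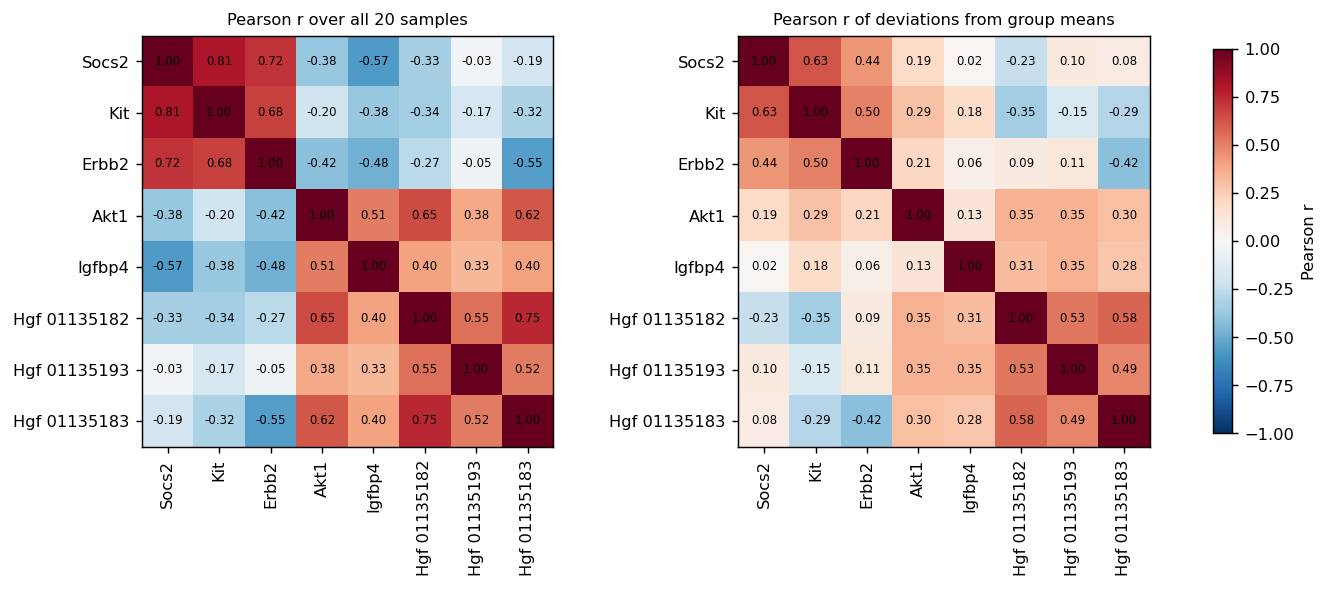
Pearson correlation between the 8 member assays over the 20 samples, on the relative levels (left) and on their deviations from the group means (right). Socs2, Kit and Erbb2 form a block, with 0.68 to 0.81 on the left and 0.44 to 0.63 on the right.

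Among the 544 assays measured in all samples, the patterns most like that of Socs2 were those of the interleukin-22 receptor gene Il22ra1 (r = 0.90), the latent TGF-beta binding protein gene Ltbp4 (0.90) and Nmi (0.85), with 0.82 to 0.86 as deviations from group means. Kit was most like the small-intestinal chemokine gene Ccl25 (0.82) and the antigen-presentation gene Cd74 (0.81), and then Socs2. Erbb2 was most like the kinase gene Map2k3 (0.76), Socs2 and Cd1d1 (0.71). Nearest to Akt1 were Plaa (0.69), the transglutaminase gene Tgm2 (0.69) and Lrp8 (0.68), which dropped to 0.51, 0.23 and 0.32 as deviations. Igfbp4 was nearest to the endotoxin-binding protein gene Lbp (0.65), Il6 (0.63) and Ccbp2 (0.60), which dropped to 0.42, 0.30 and 0.45 as deviations. Ccbp2 lies in the same stretch of assays as Igfbp4. The Hgf assays had different neighbours, led by Gusb (0.79), the glycolysis gene Pgk1 (0.85) and Pglyrp1 (0.55), and Pglyrp1 was also close to the assay led by Pgk1 (0.81). Gusb is also among the reference assays used as an alternative scaling.

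Of 149 other genes listed for these pathways, matched by symbol, 31 were measured with 32 assays, and 30 assays were tested. None was called in any comparison with limma, and 1, 0, 3, 3, 0 and 0 had an unadjusted p under 0.05 in the order used above. In DNBS against healthy 9 were higher and 21 lower, with a median of -0.16, beside a median of -0.07 over all assays. The growth hormone assay gave a product in 1 healthy and 1 CEC sample alone, and erythropoietin in 3 healthy, 2 DNBS, 2 CEC and no Nissle samples.

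Among the partners of Socs2, Socs1, its relative that blocks JAK kinases, had a log2 difference of 0.92 (SE 0.41) between DNBS and healthy and -1.12 (SE 0.41) between CEC and DNBS, with a single-exon assay, the opposite signs to Socs2. The kinase gene Jak2 differed by -0.46 and 0.47, and Stat5b, a factor that induces Socs2, by -0.13 and 0.52. The growth factor gene Igf1, whose product Igfbp4 binds, differed by 0.27 and -0.49. For Akt1, the PI3 kinase subunit gene Pik3r1 differed by -0.45 between DNBS and healthy and by 0.02 between CEC and DNBS. Of the Erbb2 family, the 2 Egfr assays differed by -0.01 and 0.20 between DNBS and healthy, and the ligand gene Areg by -0.61 (SE 0.52). Kitl, the ligand of Kit, differed by -0.15 between DNBS and healthy (SE 0.43). None of these values was called, and no partner was measured for Hgf or Fgf23.

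Markers of the small-intestinal epithelium had their lowest group mean in the DNBS group (7.37, beside 7.97 for the healthy controls, 8.26 for CEC and 7.84 for Nissle). The list of 17 genes had 5 measured, on 6 assays, of which Apoa4 stood at 40 in every sample. The mean relative level of the other 5 assays was 6.91 to 8.41 in the healthy controls, 6.88 to 7.88 in the DNBS group, 7.91 to 8.67 in the CEC group and 6.90 to 8.50 in the Nissle group. The lowest values were those of DNBS 2 (6.88), Nissle 1 (6.90) and healthy 5 (6.91). Nissle 1 also had the lowest Socs2 (0.95) and Kit (-0.50) of all 20 samples, and DNBS 2 the lowest Kit of its group (0.16). For Erbb2, however, Nissle 3 (-0.33) stood below Nissle 1 (-0.19), and DNBS 5 (-0.82) below DNBS 2 (0.00). Socs2 was slightly lower in DNBS 4 (1.40) than in DNBS 2 (1.42). Healthy 5 had Socs2, Kit and Erbb2 levels, 2.61, 1.05 and 1.16, within the range of the other healthy samples. Macrophage and dendritic cell markers, 6 of 11 measured, had means of -1.12 to -0.55 in healthy samples, -0.89 to -0.25 with DNBS alone, -0.71 to 0.65 with CEC and -0.68 to 0.14 with Nissle. The CEC group had the highest mean of this list, -0.10, beside -0.85 for the healthy controls. Of 9 lymphocyte markers 3 were measured, and the mean is over the 2 with a value in every sample, Cd28 and Cd4. It was -1.99 to -0.94, -2.58 to -1.25, -1.95 to -1.35 and -2.88 to -1.21 in the same order. None of 11 markers of fibroblasts and endothelium was measured. The part of cell composition in the members' values was not tested.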

How the data were processed

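Raw Ct values were deposited, not normalized per the file headers, for 648 assays and 20 samples. Values of 40 (9.82% of the table) and 1 empty cell were treated as missing. The labels' protocols name the RNA kit and the OpenArray cycler. Baseline, threshold and averaging of wells are not given in the sources used here.

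Relative levels were the negative Ct minus the sample mean over 544 assays. All 20 samples were fitted together with limma 3.58.1 (R 4.3.3; group means, trend in the mean level, two-sided, Benjamini-Hochberg over 569 assays with at least 3 values per group; median SE 0.42). The fit was tested on simulated data. The members and lists were chosen with earlier results of these data known. Named besides the members are the measured partners from a fixed list, of which 1 is not reported here, called pathway assays, and for each member the 3 assays of highest Pearson correlation. The DNBS and healthy groups share the title numbers 3, 4 and 5. Deviations of their same-numbered samples from the group means had correlations of 0.18, 0.14 and 0.49. In the other comparisons with 3 or more shared numbers such correlations ran from -0.4 to 0.44. Differently numbered samples were not compared and the labels give no pairing, so none is read from these values.

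Alternatives covered normalization, missing and early values, the filter, the samples fitted, weights, the replicate block and leaving out each sample. Centring stretches of 36 assays and scaling to exon-junction assays were added after the data were seen. Replicates differed by an SD of 0.606 to 1.97 cycles, and no pair was identical.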

Additional observations from a re-analysis of the deposited data

Results flagged for a closer look

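Healthy 5 stood apart from the other healthy samples for Hgf_Mm01135182_m1, at 0.11 against a nearest value of -0.84, a gap of 0.84 of the range of the group. Of 33 groups of member values examined it was the only 1 past the limit used, which chance passes in about 1 in 20 groups.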

How the results depend on the processing

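In the 6 comparisons the count of called member assays was 0, as was that of other pathway assays, and the alternatives that moved a count were these. In DNBS against healthy, 1 member (Socs2) was called in a fit to both groups alone and 7 with array weights. Leaving out 1 sample gave 0 to 1 there, with 1 (Socs2) without DNBS 5 and without Nissle 1. In CEC against DNBS, 2 were called with array weights (Socs2 and Akt1), and of the other pathway assays 2 (Axl and Socs1, both higher) in DNBS against healthy. With the title number as a replicate block the counts stayed at 0, and the log2 difference of Socs2 between DNBS and healthy was -0.91 (SE 0.29).

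Of 1584 log2 differences of members under alternatives, 1566 moved by less than the spread between replicates. The other 18 came without normalization, with stretches of 36 assays centred, or without Nissle 3, 4 and 5. No other alternative moved a value that far, and the cause was not tested. The mean Ct was 23.6 in the healthy controls, 23.3 in the DNBS group, 23.5 in the CEC group and 23.1 in the Nissle group, and without normalization these enter every difference. Socs2 then differed by -0.72 between DNBS and healthy and by -0.44 between Nissle and healthy. Values near cycle 40 and the 5 samples per group limit what can be seen.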
